A study of Mus musculus with 6 samples.

Results

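The oxidative phosphorylation subunit genes are the nuclear genes that encode the protein subunits of the 5 respiratory complexes of the mitochondrial inner membrane. They were chosen by gene name alone: Nduf followed by a, b, c, s, v or ab and a number; Sdha, Sdhb, Sdhc or Sdhd; names that begin with Uqcr or Atp5; and Cox4 to Cox8 followed by a, b or c. Names holding -ps were left out, as were genes whose average over the 6 libraries was under 6. Of 102 genes whose names matched, 14 held -ps and 9 of the others had a mean under 6, so that 79 genes of the 55487 in the table were members. Complex I (NADH dehydrogenase) had 37 members, complex II (succinate dehydrogenase) 4, complex III (cytochrome bc1) 8, complex IV (cytochrome c oxidase) 13 and complex V (ATP synthase) 17. Ndufa4 was counted with complex IV, of which its product is a subunit. The muscle isoform gene Cox7a1 lay just inside the minimum with a mean of 6.51. The highest of the 9 genes under it was Ndufs6b, annotated as a processed pseudogene, with a mean of 4.65. The names Cox4i1 and Cyc1 do not match, although both genes encode subunits, and they are treated separately here.

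The 6 libraries were made from total RNA of mouse bone marrow cells that carry Kit, a receptor of haematopoietic stem and progenitor cells. The cells received a lentivirus that overexpresses either MLLT3 WT (WT, n = 3) or MLLT3 K63E K67E (DM, n = 3), were sorted, and grew for 8 days in methylcellulose. Both groups grew with 4-hydroxytamoxifen at 200 nM, given to delete the endogenous Mllt3 gene, so that the deletion is shared by the WT and DM cells and the vector supplies the MLLT3 that differs. The medium held mFlt3L at 10 ng/mL, and mIL-3, mIL-6, mIL-11, mSCF, mGMCSF, hEPO and hTPO at 20 ng/mL each, with gentamycin. The recombinase, the strain and age of the mice and the number of mice are not given in the sources used here. The comparison asks how the 2 substitutions, which lie in the YEATS domain of MLLT3, a reader of acylated histones in transcription elongation complexes, alter the transcriptome. Nothing in the labels says that the replicates came from separate mice or cultures, so the p-values measure the spread between these libraries, which may be technical.

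Oxidative phosphorylation passes electrons from NADH (complex I) or succinate (complex II) to ubiquinone, from there through complex III to cytochrome c, and on to oxygen at complex IV. The proton gradient that complexes I, III and IV build up drives ATP synthesis by complex V. Each complex other than complex II joins products of the nuclear and the mitochondrial genome: a catalytic core of ancient subunits, and many small accessory subunits that stabilise or assemble it. In blood formation, stem cells are known to rely little on this pathway and their progeny, such as erythroid precursors and macrophages, to rely on it more.

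The table holds regularized log values (rlog, log2 scale), normalised for library size and shrunken towards each gene's mean; they hold no counts, so that the depth of the libraries is unknown. A change is the mean of the DM libraries minus the mean of the WT libraries, and a gene is called where limma, fitted over all 18766 genes that averaged 3 or more, gave a Benjamini-Hochberg adjusted p under 0.05. All 79 members passed that filter, which reads the mean over all libraries. Kit itself was at 14.58, 14.32 and 14.29 in WT and at 14.90, 14.30 and 14.59 in DM, and was not called (limma adjusted p 0.368). Mllt3, which the vector supplies and which these values cannot separate from the endogenous gene, was lower in DM by 0.48 (limma adjusted p 0.0448). WT replicate 3 stood apart: its mean deviation from the 6-library mean, taken over the 11977 tested genes that averaged 6 or more, was -0.091, against -0.034 and 0.025 in the other WT libraries and 0.028 to 0.037 in the DM libraries. The share of the linear-scale sum taken by the largest gene ran from 9.89% to 11.6%, and was highest in WT replicate 3.

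The respiratory subunit genes were slightly higher in DM as deposited. The mean was higher in DM for 74 of the 79 members (93.7%), against 51.6% of all tested genes and 67.8% of those that averaged 6 or more, and the median change was 0.14 on the log2 scale, or 1.10-fold, with a range from -0.13 (Ndufv3) to 0.31 (Ndufa13). After quantile normalization the median was 0.028, the mean was higher in DM for 52 members (65.8%, against 53.3% and 53.5% of these genes), and the median of complex III turned negative. With each library centred on its median, the member median was 0.10 and 70 members were higher (88.6%, against 43.1% and 60.9%). After a correction for transcript length and GC content it was 0.13, with 72 higher (91.1%, against 46.3% and 62.5%). The size of this common shift thus depended on the scaling, and was smallest after quantile normalization. As deposited, the median change was 0.0053 over all tested genes and 0.077 over those with a mean of at least 6. Few single genes passed the test: 5 members were called, all of them higher in DM, against a background in which 13.9% of all tested genes were called, 9.2% higher and 4.71% lower. The 5 genes are 6.33% of the members. No member was called lower by limma, and none had an unadjusted p under 0.05 in that direction. In the higher direction 27 of the 79 members had one, where 18% of all tested genes did (28.9% in either direction). Of the 11977 tested genes that averaged 6 or more, as all members do, 3317 had one in the higher direction (4511 in either). Every DM library lay above every WT library for 31 members (39.2%), and no member showed the opposite. Among all tested genes the groups did not overlap for 35.8%, and for 21.5% with DM above. Of the 11977 tested genes that averaged 6 or more, 20.4% were called, and the groups did not overlap for 43.0% (5145 genes, 3879 of them with DM above). In such bulk libraries a different share of a cell type and a different amount of RNA per cell cannot be told apart.

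**Figure D1:**
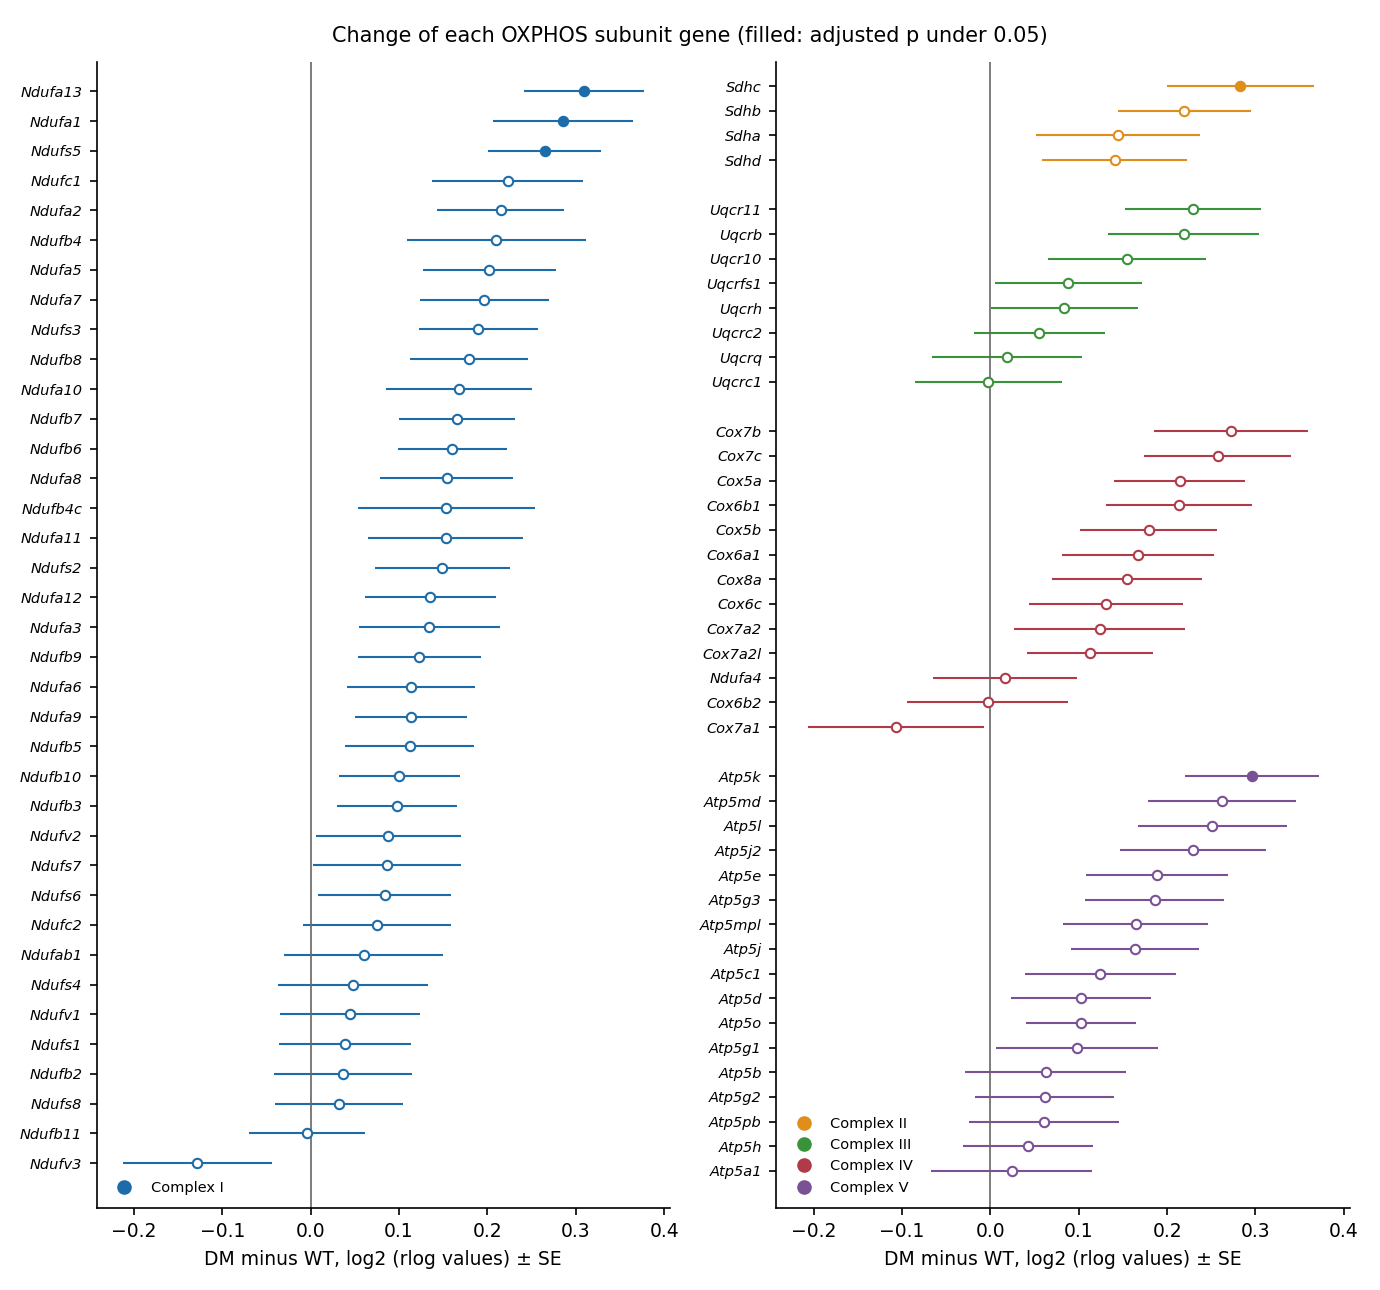
Change of each of the 79 subunit genes (DM minus WT, log2 of rlog values, horizontal axis) with its standard error as a bar, ordered by size within each complex; filled points have a limma adjusted p under 0.05. Of the points, 74 lie right of 0, and the 5 filled ones are Ndufa13, Ndufa1, Ndufs5, Sdhc and Atp5k.

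Complex I held 3 of the called genes, all of them for accessory subunits. Ndufa13 encodes a subunit also known as GRIM-19, which spans the inner membrane. Its rlog values were 11.37, 11.32 and 11.32 in WT and 11.64, 11.73 and 11.57 in DM. The 3 WT libraries were nearly level and all DM libraries stood above them, a change of 0.31 (SE 0.0679, 1.24-fold, limma adjusted p 0.016). Ndufa13 (chromosome 8, 69894180 to 69902558, minus strand) overlaps Yjefn3 on the same strand and Tssk6 on the other. Coordinates are those of GENCODE M21 on GRCm38, and it is not stated whether the counts used strand.

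Ndufa1 encodes a small subunit with a single membrane span that is needed to assemble the membrane arm. The gene (X chromosome, 37187588 to 37191163, minus strand) was at 10.92, 10.88 and 10.77 in WT and at 11.14, 11.26 and 11.03 in DM. The groups did not overlap, and the change was 0.29 (SE 0.0791, limma adjusted p 0.0403). Ndufs5 (chromosome 4, 123712710 to 123718202, minus strand), for a subunit on the intermembrane side, was at 9.37, 9.46 and 9.42 in WT and at 9.68, 9.72 and 9.65 in DM. Each group spanned less than the gap between them, and the change was 0.26 (SE 0.0636, limma adjusted p 0.023). Ndufs5 has a processed copy, Ndufs5-ps, which is expressed here and could share reads with it, so its value is uncertain.

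The rest of complex I differed less. The 7 core subunit genes, whose products carry the flavin, the iron-sulfur clusters and the quinone site, had a median change of 0.086 against 0.14 for the 30 accessory genes, and 0 of the 7 were called while 1 had an unadjusted p under 0.05. That gene was Ndufs3, at 9.31, 9.28 and 9.23 in WT and at 9.44, 9.54 and 9.41 in DM, with a change of 0.19 (SE 0.0671, limma adjusted p 0.0925). The core genes for the NADH-binding arm were near level, with 0.045 for Ndufv1, which holds the flavin, and 0.039 for Ndufs1, which holds several of the iron-sulfur clusters. For Ndufv1 and Ndufs1 the change was below its standard error. In all, 13 of the 37 genes (35%) had groups that did not overlap, all with DM above. Among the 11977 tested genes that averaged 6 or more it was 43% in either direction, and 3879 genes with DM above.

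Ndufv3, for a subunit attached to the NADH-binding arm, had the lowest difference of all members without passing the test. It was at 11.53, 11.54 and 11.33 in WT and at 11.31, 11.45 and 11.25 in DM. DM replicate 2 lay above WT replicate 3, and the change was -0.13 (SE 0.0843, limma adjusted p 0.335). After quantile normalization it was the only member called lower (adjusted p 0.0337). Ndufb11 was level, with a difference of -0.0041. Ndufb4c matches the name rule but is annotated as a processed pseudogene, and had a mean rlog value of 7.45.

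Complex II is the smallest complex and is the only one made wholly from nuclear genes. Its 4 genes were all higher in DM, with a median change of 0.18, but only Sdhc was called. Sdhc encodes a membrane anchor, and the gene (chromosome 1, 171127165 to 171150603, minus strand) was at 10.62, 10.80 and 10.58 in WT and at 10.92, 11.07 and 10.86 in DM. Its groups did not overlap, with a change of 0.28 (SE 0.0829, limma adjusted p 0.0492), just inside the threshold. Sdhb, for the iron-sulfur subunit, was at 11.19, 11.27 and 11.06 in WT and at 11.42, 11.44 and 11.33 in DM. Its groups also did not overlap, with a change of 0.22 (limma adjusted p 0.0834). Sdha, the flavoprotein that oxidises succinate, and Sdhd, the other anchor, differed by 0.14 each, and for both a WT library lay above a DM library.

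Complex III had the lowest median change, 0.086, with 0 of 8 genes called by limma and 2 at an unadjusted p under 0.05. Its core genes stayed near level: 0.055 for Uqcrc2, -0.0024 for Uqcrc1, and 0.088 for Uqcrfs1, the Rieske iron-sulfur protein. The small accessory genes were higher, with a median of 0.15 over 5. Uqcr11, for the smallest subunit, was at 10.88, 10.88 and 10.70 in WT and at 11.07, 11.12 and 10.96 in DM. Uqcrb was at 11.17, 11.15 and 10.94 in WT and at 11.24, 11.43 and 11.25 in DM. For these 2 genes the groups did not overlap, with changes of 0.23 (limma adjusted p 0.0786) and 0.22 (adjusted p 0.124). Uqcrq, which binds next to cytochrome b, was near level at 0.019.

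In complex IV, 0 of 13 genes were called by limma and 5 had an unadjusted p under 0.05. The groups did not overlap for 6 (46%), all with DM above. Among the 11977 tested genes that averaged 6 or more it was 43% in either direction, and 3879 genes with DM above. The median change was 0.15. The largest changes were those of small membrane subunits: Cox7b was at 11.62, 11.70 and 11.38 in WT and at 11.82, 11.89 and 11.80 in DM. Cox7c was at 10.85, 10.72 and 10.67 in WT and between 10.88 and 11.13 in DM. In both, DM stood above WT throughout, by 0.27 (limma adjusted p 0.0677) and 0.26 (adjusted p 0.069). Cox5a and Cox5b, on the matrix side, and Cox6b1, on the intermembrane side where cytochrome c docks, were higher by 0.21, 0.18 and 0.21, with groups that did not overlap. Ndufa4 was level at 0.017. Cox7a2l, known as a factor that joins complexes III and IV into supercomplexes, differed by 0.11 (limma adjusted p 0.319).

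The isoform genes of complex IV differed widely in level per transcript length, taken as the mean rlog value over the 6 libraries minus log2 of the length in kilobases. Of the ubiquitous forms, Cox6a1 was at 13.64, Cox6b1 at 13.34, Cox7a2 at 12.52, Cox7b at 11.70 and Cox8a at 13.52 on that scale. The muscle forms Cox6a2 and Cox8b were at 2.73 and 0.44, and the testis forms Cox7b2 and Cox8c at -0.13 and 1.67; these 4 were not members. The ubiquitous form was thus the higher one in each of these families. Cox6b2, a testis form, and Cox7a1, a muscle form, were intermediate at 8.86 and 7.70. As rlog values without the length term, Cox7a1 was at 6.61, 6.54 and 6.54 in WT and at 6.61, 6.22 and 6.54 in DM, so that its lower DM mean came from DM replicate 2. Of the pair Cox4i1 and Cox4i2, the second being the hypoxia-responsive lung form, the levels per length were 13.51 and 2.82. Ndufa4l2, the hypoxia-induced relative of Ndufa4, was at 2.09 against 11.50.

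Complex V was higher in DM in all 17 genes, with a median change of 0.12. The groups did not overlap for 8 (47%), all with DM above. Of the 11977 tested genes that averaged 6 or more, 43% did not overlap in either direction, and 3879 did not with DM above. The 5 accessory genes of the membrane part stood highest, with a median of 0.25 and no overlap in any of the 5. Atp5k, for subunit e, which holds ATP synthase dimers together with subunit g, was at 11.27, 11.23 and 11.07 in WT and at 11.43, 11.56 and 11.47 in DM. It was the only called gene of the complex (chromosome 5, 108433244 to 108434448, minus strand), with a change of 0.30 (SE 0.0757, 1.23-fold, limma adjusted p 0.0295). Atp5l, for subunit g, was at 11.16, 11.10 and 10.89 in WT and at 11.27, 11.39 and 11.24 in DM. Its change of 0.25 did not pass the test (limma adjusted p 0.0794). Atp5md, for the small subunit also called DAPIT, was at 10.58, 10.60 and 10.35 in WT and at 10.77, 10.85 and 10.70 in DM. Its change was 0.26 (limma adjusted p 0.0668), and those of Atp5j2, for subunit f, and Atp5mpl, for the 6.8PL proteolipid, were 0.23 and 0.16.

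The other parts of ATP synthase differed less. The catalytic head and central stalk genes Atp5a1, Atp5b, Atp5c1, Atp5d and Atp5e had a median change of 0.10, the peripheral stalk genes Atp5h, Atp5j, Atp5o and Atp5pb one of 0.082, and 0 of the 9 were called by limma, with 1 in each part at an unadjusted p under 0.05. Atp5b, for the catalytic subunit, was at 14.28, 14.36 and 14.12 in WT and at 14.34, 14.39 and 14.22 in DM. WT replicate 2 lay above 2 of the DM libraries there, and the change was 0.062 (SE 0.0908). The 3 genes for the same c subunit of the membrane ring differed: Atp5g3 differed by 0.19 with no overlap, Atp5g1 by 0.098 and Atp5g2 by 0.062. None of the 3 was called, and 1 of them, Atp5g3, had an unadjusted p under 0.05. The name Atp5o belongs to 2 genes of the table, of which the one that is not a member was listed at 0 in all libraries.

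Calls among the members depended on which libraries were fitted, as did calls among all genes. When WT replicate 1 was left out, 0 of the 79 members were called by limma against 6.31% of all tested genes, and the median change of the members was 0.17. Without DM replicate 2 it was 0 members against 5.96%, with a median of 0.10. At an unadjusted p under 0.05 the 2 fits gave 22 and 7 members. The fit without DM replicate 1 called 1 member (9.91% of all genes), that without DM replicate 3 called 2 (8.19%), that without WT replicate 3 called 2 (10.6%) and that without WT replicate 2 called 8 (18.5%). Ndufa13 was called in 4 of these 6 fits and its adjusted p reached at most 0.0856. Sdhc was the least stable, with an adjusted p up to 0.186. The direction of all 5 changes held in every alternative run, between 0.18 and 0.35 over the 5 genes, including quantile normalization, under which only Ndufs5 remained called of the 5.

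The spread between libraries was shared by nearly all members. WT replicate 3 was the lowest library for 71 of the 79 members, against 47.4% of the tested genes with a mean of at least 6. DM replicate 2 was the highest for 63, against 28.3% of those genes. Averaged over the members, the deviation from the 6-library mean was -0.017, -0.0039 and -0.18 in WT and 0.076, 0.12 and 0.0010 in DM. DM replicate 3 thus sat close to WT replicates 1 and 2, and for 47 members it lay below at least 1 of them. Every DM library lay above WT replicate 3 for 74 members. WT replicate 3 was also low over all tested genes that averaged 6 or more (mean deviation -0.091). The share of those genes with either pattern is not given here. Without WT replicate 3 the median change of the members was 0.079, and 65 of 79 (82.3%) had a higher mean in DM, against 62% of the tested genes that averaged 6 or more.

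The complexes moved together from library to library. In WT replicate 3 their mean deviations ran from -0.17 (complex IV) to -0.23 (complex II), and in DM replicate 2 from 0.11 (complex I) to 0.18 (complex II). In complex III, WT replicates 1 and 2, at 0.024 and 0.015, lay above DM replicate 3 at -0.023. After quantile normalization WT replicate 1 had complex III at 0.079, its highest value of the 6 libraries, and the deviations of the 79 members averaged 0.033, -0.031 and -0.056 in WT and 0.024, 0.064 and -0.033 in DM. On that scale the groups overlapped. On the linear scale the members summed to 0.693%, 0.662% and 0.638% of all values in WT and to 0.664%, 0.680% and 0.640% in DM, so that this share, which the most abundant members dominate, overlapped too.

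**Figure D2:**
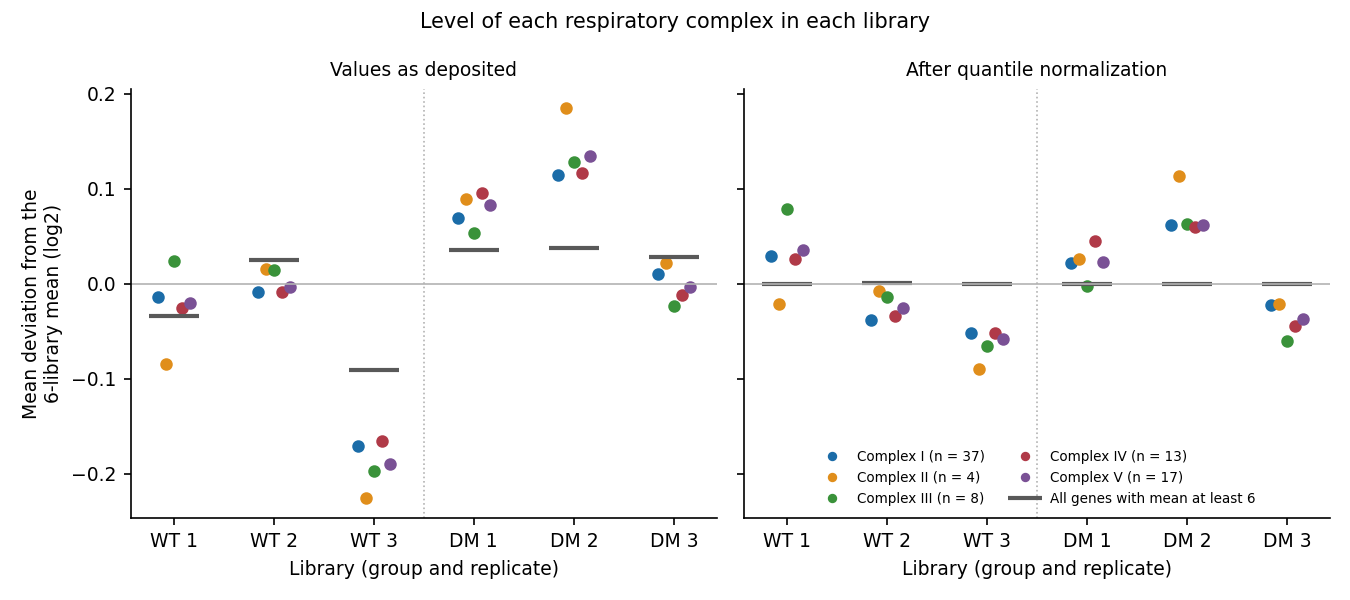
Mean deviation of the members of each complex from their 6-library mean (log2, vertical axis) in each library, with values as deposited on the left and after quantile normalization on the right; grey bars give all tested genes with a mean of at least 6. On the left WT 3 lies lowest for all 5 complexes and DM 2 highest, and on the right the distance between the groups is smaller and complex III in WT 1 is at 0.079.

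Among the members, genes for small subunits differed more between the groups than genes for large ones. The size classes were set after the values had been seen, and size is that of the longest annotated coding sequence, in residues of the precursor protein. The 20 genes with fewer than 100 residues had a median change of 0.20, and 12 (60%) had groups that did not overlap, all with DM above. Of all 201 tested genes of that size that averaged 6 or more, 51.7% did not overlap (104 genes, 92 of them with DM above). The 20 genes with more than 200 residues had a median of 0.087 with 4 such genes (20%), all with DM above. Of the 9264 tested genes of that size that averaged 6 or more it was 44.1% (4087 genes, 3096 of them with DM above). The 38 genes in between had a median of 0.14. For Ndufv3 the longest coding sequence, 1404 bases or 468 residues, exceeds the median transcript length of 645 bases. Its place among the large subunits is therefore uncertain. Across the 78 protein-coding members Spearman's rho between size and change was -0.43, given as a description because the genes share the same 6 libraries. It lay between -0.39 and -0.51 in all alternative fits. Across the 10684 tested genes with a mean of at least 6 and a coding sequence rho was -0.045.

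The same genes and classes were then read by library and under other settings, which is a description and no test of the pattern, since the classes came from these values. The mean level of the small members minus that of the large ones, each centred over the 6 libraries, came to -0.025, -0.050 and -0.056 in WT and to 0.031, 0.059 and 0.042 in DM, so that the WT and DM values did not overlap. The medians of the 2 classes were 0.13 and 0.0093 without WT replicate 3, and 0.11 and -0.016 after quantile normalization, where the sign for large subunits turned. After a correction of each library for transcript length and GC content they were 0.21 and 0.051. In the other tested genes with a mean of at least 6, those under 100 residues (181 genes) had a median change of 0.14 and those over 200 (9244 genes) one of 0.082. Their difference was -0.014, -0.031 and -0.015 in WT and -0.0084, 0.065 and 0.0025 in DM, where the groups do not overlap either but DM replicate 2 alone stands clear of the WT libraries.

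**Figure D3:**
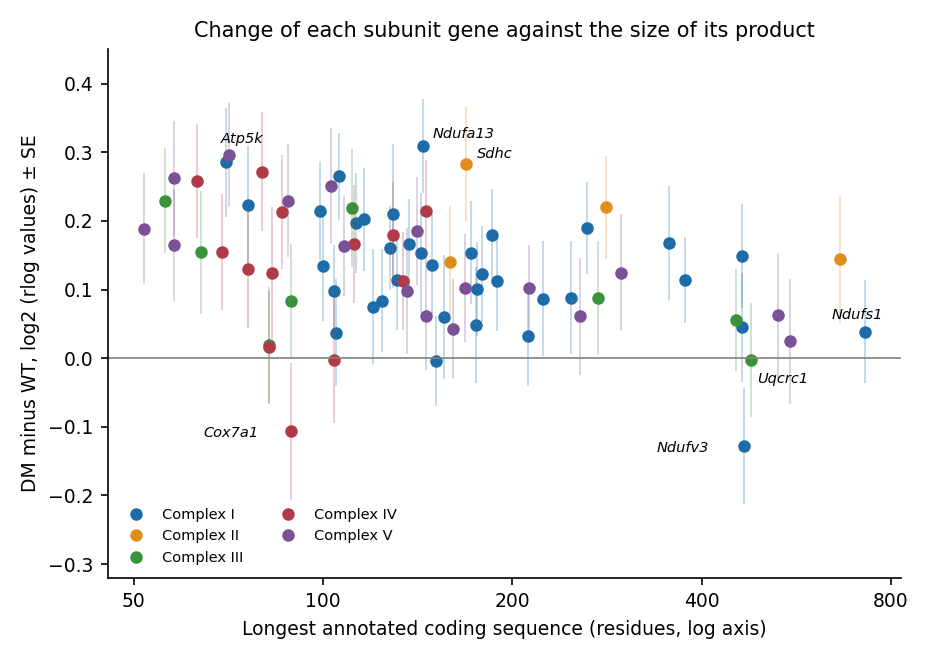
Change of each of the 78 protein-coding members (DM minus WT, log2 of rlog values, with standard error) against the length of its longest annotated coding sequence in residues (log axis), coloured by complex. The cloud falls from left to right (Spearman's rho -0.43): genes under 100 residues have a median of 0.20 and genes over 200 residues a median of 0.087, with Cox7a1 and Ndufv3 lowest.

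Levels can be set against each other between genes only per transcript length, so the scale used for the isoforms was used for all members. On that scale the median level was 12.31 for complex V, 12.10 for complex III, 11.97 for complex IV, 11.07 for complex II and 10.78 for complex I. The ranges within the complexes were wider than the gaps between these medians, from 6.94 (Ndufb2) to 12.75 (Ndufa3) in complex I and from 7.70 (Cox7a1) to 13.64 (Cox6a1) in complex IV. The highest members were Cox6a1 at 13.64, Cox8a at 13.52 and Atp5b at 13.35. The length was the median over annotated isoforms, and the value of a gene whose isoforms differ much in length, such as Ndufb2, is uncertain.

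**Figure D4:**
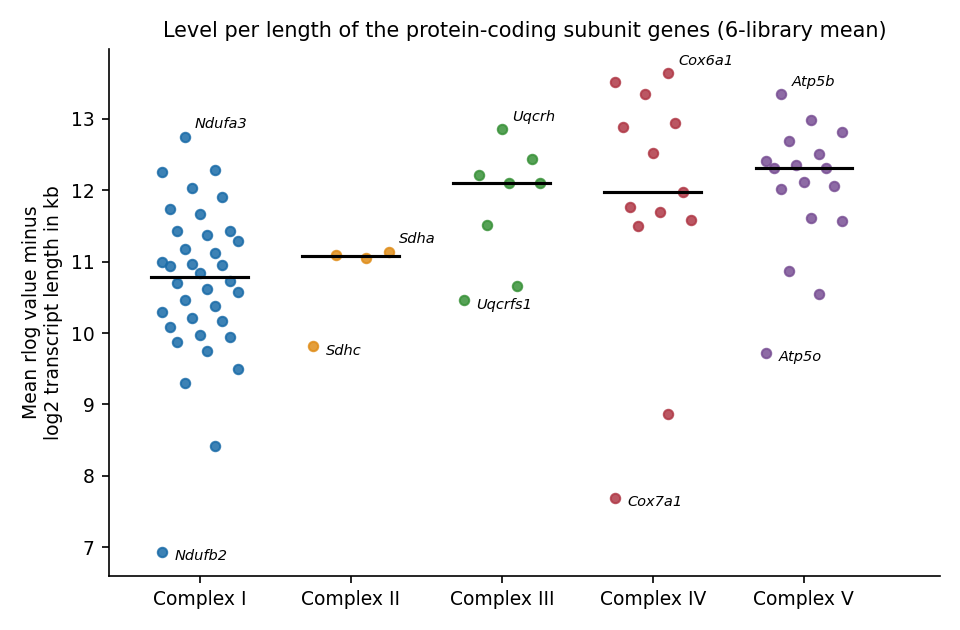
Level per length of the protein-coding members (mean rlog value over the 6 libraries minus log2 of the transcript length in kilobases, vertical axis) by complex, with the median as a line and the lowest and highest gene named. The medians run from 10.78 in complex I to 12.31 in complex V, and the ranges overlap.

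The mitochondrial genome supplies 13 subunits of complexes I, III, IV and V, and 7 of their genes could be tested. Of these 7, 0 were called by limma and 0 had an unadjusted p under 0.05, with a median change of 0.15 that turned to -0.050 after quantile normalization. mt-Co1, for the catalytic subunit of complex IV, was at 17.93, 18.07 and 17.80 in WT and at 18.08, 18.19 and 18.07 in DM. Its groups did not overlap: the lowest DM value lay just above the highest WT value. Like the nuclear genes, these genes were lowest in WT replicate 3, with a mean deviation of -0.19, and highest in DM replicate 2, with 0.14. mt-Nd6, the gene on the other strand, was the exception at -0.032. mt-Co2, mt-Co3, mt-Atp6, mt-Nd3, mt-Atp8 and mt-Nd4l were listed near or below 0 in all libraries, although every respiring cell uses them, so their values are not read as levels.

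The genes of these complexes outside the name rule, Cox4i1 and Cyc1 for subunits, Cycs for cytochrome c and Atpif1 for the inhibitor of ATP synthase, had a median change of 0.11, which turned to -0.014 after quantile normalization, with 0 of 4 called and 0 at an unadjusted p under 0.05. Assembly factors, which help build the complexes and are not part of them, had 1 of 45 genes called by limma, higher, and 9 at an unadjusted p under 0.05, with a median of 0.091. The called gene was Uqcc3, an assembly factor of complex III, at 9.51, 9.44 and 9.42 in WT and at 9.67, 9.68 and 9.68 in DM. Its change was 0.22 (SE 0.0624, limma adjusted p 0.0469) and the groups did not overlap. The call was lost without any 1 of the 6 libraries.

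Other mitochondrial functions had lower median changes than the 0.14 of all members. Over all tested genes that averaged 6 or more, the median was 0.077 and 20.4% were called. The 17 genes of the tricarboxylic acid cycle, which feeds electrons into complexes I and II, had 0 called by limma, 2 at an unadjusted p under 0.05 and a median change of 0.018. The 23 genes of protein import and cristae had 0 called, 4 at an unadjusted p under 0.05 and a median of 0.087. Mitochondrial ribosomal protein genes had 1 of 77 called and a median of 0.066. That gene, Mrpl52, was at 9.57, 9.81 and 9.62 in WT and at 10.17, 10.32 and 10.19 in DM. Its change of 0.56 (SE 0.0803, limma adjusted p 0.00377) was larger than that of any respiratory subunit gene. Of 16 regulators of mitochondrial biogenesis, 1 was called and the median was -0.0055. The called gene was Ppargc1b, a coactivator of respiratory genes, at 8.18, 8.43 and 8.15 in WT and at 8.61, 8.55 and 8.55 in DM, a change of 0.32 (limma adjusted p 0.0347) that was not called in 5 of the 6 fits without 1 library. Nrf1 and Gabpa, factors that bind respiratory gene promoters, differed by -0.10 and -0.17 and were not called (limma adjusted p 0.293 and 0.117).

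Promoters of respiratory genes are known to hold sites for NRF1, GABP and YY1, so promoter sequences were searched for a core of each on both strands. RefSeq promoters on GRCm38.p6 (300 bases, 250 before and 50 after the start) matched 67 of the 79 members with 72 promoters. The NRF1 core, a run of 10 bases that reads the same on both strands and stands in capitals in the Cox6a1 and Ndufa11 promoters here, was in 6.94% of these promoters, against 0.971% of all 32851 promoters and 2.08% of those of tested genes with a mean of at least 6. The GABP core CCGGAAG was in 23.6%, against 8.86% and 18.2%, and the YY1 core AAGATGGCG in 9.72%, against 1.40% and 3.13%. Overlap of matches was checked only in the 250 bases before the start, and some member promoters were left out of that check. There, no match of 1 core overlapped a match of another. The 50 bases after the start were not checked for overlap. The median change of members with and without a core was 0.15 and 0.14 for NRF1 (5 and 62 genes), 0.17 and 0.11 for GABP (17 and 50), and 0.11 and 0.14 for YY1 (7 and 60), with ranges that overlapped. A match describes letters in a window and does not show binding.

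The following 4 promoters show what these cores look like in members that differ in change, each written 5′ to 3′ on the strand of the gene, in lower case with the core in capitals. Bases that GENCODE M21 places in a transcript were removed, 23 in Cox6a1, 9 in Uqcr11 and 0 in Ndufa11 and Atp5l. Positions count back from the RefSeq start and include the removed bases, so they do not count from the end of the shortened sequences. Cox6a1 and Ndufa11 hold the NRF1 core, 153 to 162 and 51 to 60 bases before the start, and differed by 0.17 and 0.15. Cox6a1 also has a GABP match, 10 to 16 bases before the start on the opposite strand, among the bases removed here. Uqcr11 and Atp5l hold the GABP core, 60 to 66 bases before the start on its own strand and 206 to 212 bases before it on the opposite strand (read here as CTTCCGG), and differed by 0.23 and 0.25. None of the 4 changes passed the test.
Cox6a1, chr5:115348982-115349208, minus strand: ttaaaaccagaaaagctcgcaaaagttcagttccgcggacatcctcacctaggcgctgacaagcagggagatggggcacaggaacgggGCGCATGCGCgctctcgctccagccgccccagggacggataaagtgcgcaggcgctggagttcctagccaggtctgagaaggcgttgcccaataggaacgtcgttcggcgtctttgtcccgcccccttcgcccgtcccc
Ndufa11, chr17:56717512-56717761, plus strand: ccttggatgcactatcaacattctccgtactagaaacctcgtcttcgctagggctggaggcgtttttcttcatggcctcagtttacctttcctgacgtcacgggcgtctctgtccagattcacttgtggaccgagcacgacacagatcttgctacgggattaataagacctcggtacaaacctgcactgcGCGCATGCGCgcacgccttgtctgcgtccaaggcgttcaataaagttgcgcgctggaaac
Uqcr11, chr10:80406831-80407071, minus strand: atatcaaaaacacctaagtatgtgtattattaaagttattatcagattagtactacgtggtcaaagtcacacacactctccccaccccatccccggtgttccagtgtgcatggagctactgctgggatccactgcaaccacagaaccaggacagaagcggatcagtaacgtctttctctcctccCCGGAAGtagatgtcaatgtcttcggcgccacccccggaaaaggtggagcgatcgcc
Atp5l, chr9:44920743-44920992, minus strand: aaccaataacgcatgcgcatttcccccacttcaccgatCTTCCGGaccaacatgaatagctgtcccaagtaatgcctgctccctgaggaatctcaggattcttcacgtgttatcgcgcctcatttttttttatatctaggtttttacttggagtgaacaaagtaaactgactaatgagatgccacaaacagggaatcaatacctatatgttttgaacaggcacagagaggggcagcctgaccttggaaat

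Markers of some mature cell types differed between the groups. All 15 neutrophil markers were lower in DM, 13 of them called, with mean levels from 13.32 to 13.51 in the WT libraries and from 11.27 to 11.86 in DM. Of 14 tested macrophage markers 11 were called, all higher, with mean levels from 11.33 to 11.77 in WT and from 12.01 to 12.26 in DM; C1qa had a mean under 3. Of 18 proliferation genes 15 were called, all lower. Their part in the change of the subunit genes was not tested. The 10 tested erythroid markers had 0 called by limma and 0 at an unadjusted p under 0.05. They were highest in WT replicate 3, with a mean deviation of 0.51, and lowest in DM replicate 3, with -0.32. The subunit genes were lowest of their group in both libraries, so the 2 lists ran opposite ways in WT replicate 3 and the same way in DM replicate 3. Macrophage markers, like the subunit genes, were lowest in WT replicate 3 (-0.49) and highest in DM replicate 2 (0.44). Their lowest DM library was replicate 1 (0.19). Mean erythroid levels ran from 7.25 to 7.90 in WT and from 7.07 to 7.37 in DM, and Hba-a1 and Hba-a2 had means under 3. Of mast cell markers 2 of 12 were called (Mitf higher, Hdc lower), and of megakaryocyte markers 2 of 8 (Vwf and Gp1ba, both higher). Of lymphoid markers 3 of 6 were called (Il7r higher, Nkg7 and Cd79b lower). The shares called were 16.7%, 25% and 50%, against 13.9% of all tested genes and 20.4% of those that averaged 6 or more. The part of these cells in the result was not tested either.

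An overlapping gene on the opposite strand is annotated for 28 of the 79 members, for 20 of them a protein-coding one. Since use of strand is not stated, reads of such pairs cannot be told apart. Among the 5 called members this touches Ndufa13.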

How the data were processed

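Total RNA of 6 libraries (3 WT, 3 DM) was measured by RNA-seq. The deposited table held rlog values on the log2 scale, read as such from its name and its values. Per the submitters' processing notes, the tools were cutadapt 2.6, STAR 2.7.3 and DESeq2 1.30.0 and the build was mm10; settings, counting tool, annotation and use of strand are not given in the sources used here. Regularization shrinks low values, so that changes of weak genes are understated, and depth is unknown.

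The 142699 lines were merged into 55487 genes. DM was compared with WT by limma 3.58.1 (lmFit, eBayes with trend, R 4.3.3, prior degrees of freedom 5.82). The fit covered all 18766 genes that averaged 3 or more, with Benjamini-Hochberg adjustment and a threshold of 0.05. The code of the test was run on simulated data with independent noise in each gene and library. Those data lack the shifts between libraries that the members share, so the run cannot show how such shifts affect the calls. Coordinates, transcript and coding lengths came from GENCODE M21. Plots used matplotlib 3.10.9. Named genes were the called members, the largest rise and fall of each complex, isoform pairs, members near the minimum and up to 3 called genes of each list; other names were chosen after their values were seen. The members and lists were chosen with earlier results of these data known. Alternatives were other filters on the mean, no trend, quantile normalization, median centring, a replicate block, a correction for length and GC content (natural splines, 5 degrees of freedom, 96.9% of tested genes), and each library left out. The GENCODE M21 build, GRCm38, is the one named mm10.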

Additional observations from a re-analysis of the deposited data

How the results depend on the processing

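With the replicate number as a block, 21 members were called higher in place of 5, the 5 among them, and 2632 of all genes were called higher in place of 1727; 26.6% of the members were then called against 19.9% of all genes and 29.9% of those that averaged 6 or more, where the fit without the block called 6.33% against 13.9%; 14 genes of the mitochondrial lists were called in place of 3. With length and GC correction added to the block these counts were 25 members (31.6%, against 20% and 29.6% of these genes) and 16 list genes. Deviations from the group means correlated at 0.49, 0.12 and 0.041 between same-numbered libraries (replicates 1 to 3). Between differently numbered ones they correlated from -0.34 to 0.12. With 3 libraries in each group these values cannot decide whether the numbers pair the samples. The main fit did not take them as pairs.

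Quantile normalization left 1 member called higher (Ndufs5) and 1 lower (Ndufv3), 6 list genes called, and medians of 0.028 over all members and of 0.038, 0.068, -0.018, 0.019 and 0.031 for complexes I to V. It turned the medians of the mitochondrially encoded subunits to -0.050 and of the subunits outside the name rule to -0.014. The cause was not tested. Members called higher numbered 8 with length and GC correction (10.1%, against 14.9% of all genes; 5 list genes called), 8 with a mean of at least 5 (against 22.4%), and 1 without a filter (against 3.75%), where 1132 genes were called higher and 1 list gene was called; those filters change the number of genes tested. Median centring called 4 (5.06%, against 14.7%). With each library left out in turn, 0 to 8 members, 1 to 5 list genes, and 1119 to 3475 genes of all were called (598 to 2323 higher, 521 to 1152 lower). Complex medians with Ndufa4 counted in complex I, without Ndufb4c or with members down to a mean of 3 moved by less than the spread between replicates.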

Other observations

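Some names set aside because they hold -ps carried values like those of the members. Ndufb1-ps, which the annotation calls a noncoding RNA at a bidirectional promoter and which overlaps Cpsf2 on the opposite strand, was at 11.49, 11.51 and 11.40 in WT and at 11.76, 11.87 and 11.76 in DM. Its change was 0.33 (SE 0.0687, limma adjusted p 0.0129), larger than that of any member. Ndufs5-ps, a processed copy of Ndufs5, was at 8.31, 8.25 and 8.33 in WT and at 8.67, 8.54 and 8.57 in DM. It differed by 0.30 (SE 0.0685, limma adjusted p 0.0192). Both were named after their values were seen. Other processed copies showed smaller differences: -0.023 for Uqcrh-ps2, 0.072 for Atp5pb-ps, 0.13 for Atp5l2-ps and -0.066 for Cox5b-ps, which is annotated as protein-coding, none of them called.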
